A study of Homo sapiens with 9 samples.

Results

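The ISG15 conjugation genes are the 6 genes of a small ubiquitin-like modification system: ISG15, UBA7, UBE2L6, HERC5, HERC6 and USP18. They were chosen by name, as the rows of the deposited tables whose Ensembl identifier maps to these symbols. All 6 were found among the 60617 genes of the tables, and all 6 were among the 18532 genes with enough counts to be tested. They were measured in 9 RNA-seq libraries of PC-3 cells, an established human prostate cancer cell line. In 3 control libraries (Ctrl) the cells had received the vehicle, in 3 (Dec) decitabine at 1 µM, and in 3 (Dec_Sam, the combination treatment) decitabine at 1 µM together with S-adenosylmethionine (SAM) at 200 µM. Doses and vehicle come from the study's methods. The sample labels give 5 days of treatment, in a text on extraction that speaks of DNA, and no genotype. PC-3 is a single line, no label says whether the replicates were separate cultures, and p-values therefore measure only the spread between these libraries, which may be technical. No library with SAM by itself was analysed here.

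ISG15 is an interferon-induced protein that is joined to other proteins much as ubiquitin is. UBA7 is the activating enzyme (E1) of this chain, UBE2L6 the conjugating enzyme (E2) and HERC5 the main ligase (E3) in human cells, while the closely related HERC6 serves as the ligase in mice. USP18 removes ISG15 from its targets and, apart from that, sits at the type I interferon receptor and damps its signalling. Free ISG15 also leaves cells and acts as a cytokine-like signal. Decitabine is built into DNA and traps DNA methyltransferases, so that DNA methylation is lost as cells divide, and SAM is the methyl donor of these enzymes.

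The genes lie on 5 chromosomes, with only HERC5 and HERC6 as neighbours. In GENCODE release 44 on GRCh38, the body of ISG15 (ENSG00000187608) covers chromosome 1 from 1001138 to 1014540 on the + strand, with the start of its main transcript at 1013497. UBA7 (ENSG00000182179) lies on chromosome 3 from 49805209 to 49813953 and UBE2L6 (ENSG00000156587) on chromosome 11 from 57551656 to 57568284, both on the − strand. HERC6 (ENSG00000138642, 88378739 to 88443097) and HERC5 (ENSG00000138646, 88457119 to 88506163) follow each other on the + strand of chromosome 4, 14.02 kb apart. USP18 (ENSG00000184979) lies on the + strand of chromosome 22 from 18150118 to 18177397.

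The promoters of ISG15 and HERC5 are shown because both hold the letters of the interferon-stimulated response element, the sequence that interferon-activated STAT and IRF factors are known to bind. Each line gives the 250 bases before the start site, 5′ to 3′ on the + strand of GRCh38.p14 as RefSeq has it, at chr1:1013247-1013496 for ISG15 and at chr4:88456869-88457118 for HERC5. Capitals mark each match to the letters GAAA, any 2 bases and GAAA again on either strand, and overlapping matches run together.
ISG15: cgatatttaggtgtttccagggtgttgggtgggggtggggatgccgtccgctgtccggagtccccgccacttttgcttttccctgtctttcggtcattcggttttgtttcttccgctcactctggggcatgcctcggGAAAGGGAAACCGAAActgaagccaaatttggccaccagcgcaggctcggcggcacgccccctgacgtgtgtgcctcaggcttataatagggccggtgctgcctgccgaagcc
HERC5: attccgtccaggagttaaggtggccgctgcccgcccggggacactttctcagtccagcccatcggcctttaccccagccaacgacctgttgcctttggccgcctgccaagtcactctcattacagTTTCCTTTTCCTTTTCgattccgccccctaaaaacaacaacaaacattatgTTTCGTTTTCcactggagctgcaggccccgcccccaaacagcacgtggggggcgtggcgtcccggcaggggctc
In ISG15, 2 overlapping matches on the + strand began 113 and 107 bases before the start. In HERC5, 3 matches on the − strand began 125, 119 and 74 bases before it, and the first pair overlapped. Windows of 250 bases before and 50 after the start were searched for 4 of the 6 genes, and those of UBE2L6 and HERC6 held no match to these letters. In UBE2L6 and HERC6, 74 and 113 of the 250 bases before the main start lie in annotated exons. Only the main start of each gene was searched. Among 35116 promoter windows of the same length, 3.57% held a match. The STAT palindrome TTCNNNGAA, searched in the same way, occurred in 7.66% of the windows and in none of the 4. The windows held 20 CpG sites in ISG15, 21 in HERC5, 16 in HERC6 and 41 in UBE2L6, beside a median of 14 and quartiles of 4 and 28 over all windows. No methylation value of these promoters was analysed here, and a letter match describes the sequence and nothing about binding in these cells.

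The libraries had totals between 21934307 and 22489684 counts. Levels are given as CPM, the counts of a gene relative to the total of its library, after TMM scaling, which assumes that most genes do not change. With decitabine, however, 36.3% of all genes tested were called higher and 32.5% lower. TMM factors were 0.895 to 0.902 in control and 1.033 to 1.078 in treated libraries, so small changes against control depend on the scaling. The epithelial markers KRT8, KRT18, KRT19, EPCAM and CDH1 were all present, with a summed level (CPM without TMM) of 788.7 to 854.5 in control, 935.5 to 972.7 in decitabine and 776.1 to 894.8 in combination libraries. The 9 leukocyte markers on the same scale summed to 0.356 to 0.449 in control, 1.88 to 2.76 in decitabine and 1.73 to 2.32 in combination libraries. Of these, 2 of 9 passed the filter, PTPRC and CD14, with at most 2 and 4 counts in a control library and 30 and 24 in a treated one. They passed it through the treated libraries, so their rise with each treatment was largely set by the filter. Of all genes tested, 36.3% rose with decitabine and 35.9% with the combination treatment. CD2, MS4A1 and NKG7 had no count in any library. The part of such cells in the results was not tested. In bulk samples, fewer expressing cells and less RNA per cell cannot be told apart.

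One library stood apart for all 6 genes. In Dec_Sam replicate 3, each of them was 2.21 to 3.33 times its mean in Dec_Sam replicates 1 and 2. Among all genes tested, 2.423% reached at least 2 times that mean, and replicate 3 was the highest of its group for 38.08%. The changes of the 6 genes with the combination treatment are therefore given with and without this library, as are those of the other genes named for a change against decitabine. As the library was singled out by the values of the 6 genes, their changes and p-values without it follow in part from that choice. They rest on Dec_Sam replicates 1 and 2.

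Decitabine against control compared the methyltransferase inhibitor with the vehicle. All 6 genes were upregulated, the modifier most and the ligase HERC5 least, and no decitabine library overlapped a control library for any of them. Of all genes tested, 36.3% were upregulated in this comparison and 38.1% lay higher without overlap. The median log2 fold change of the 6 genes was 3.23, beside 0.035 over all genes tested. Scaled by library size alone, the 6 changes lay between 3.135 and 3.989.

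ISG15, the modifier itself, had 100.9, 109.1 and 80.3 CPM in control replicates 1, 2 and 3. With decitabine it had 1241, 1298 and 1345 CPM. With the combination treatment it had 264.0, 280.3 and 633.7 CPM. The decitabine libraries lay far above both other groups, and every combination library lay above the highest control. From control to decitabine the mean rose from 96.8 ± 14.8 to 1295 ± 51.7 CPM (SD, n = 3), a 13.4-fold change (log2 3.74, SE 0.38, edgeR adjusted p = 0.00011). In counts, this was a change from between 1627 and 2181 to between 29361 and 31752 per library.

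UBA7, which activates ISG15, was the lowest of the 6 genes. It had 1.24, 1.80 and 1.98 CPM in the controls, or 25 to 40 counts per library. Decitabine brought it to 17.1, 12.4 and 16.1 CPM. In the combination libraries it had 1.92, 2.02 and 6.56 CPM, of which the first lay below the highest control. Its rise with decitabine was 9.05-fold (log2 3.18, SE 0.48, edgeR adjusted p = 0.00049).

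UBE2L6, which takes ISG15 over from UBA7, followed ISG15 closely. Its controls had 14.5, 17.2 and 14.2 CPM. The decitabine libraries had 187.1, 171.8 and 188.8 CPM, and the combination libraries 38.5, 38.5 and 85.1 CPM. The 3 groups did not overlap. Decitabine raised it 11.9-fold (log2 3.58, SE 0.35, edgeR adjusted p = 7.8e-05).

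HERC5 and HERC6 started from nearly the same level. HERC5, the ligase, had 3.13, 3.35 and 3.51 CPM in control, 25.9, 23.7 and 24.6 in decitabine and 5.23, 6.20 and 12.9 in combination libraries. HERC6 had 3.08, 4.202 and 3.06 CPM in control, 36.8, 33.8 and 29.7 in decitabine and 4.27, 5.68 and 14.1 in combination libraries. Neither gene overlapped between any pair of groups, although the lowest combination library of HERC6 lay only just above its highest control. Decitabine raised HERC5 7.41-fold (log2 2.89, SE 0.31, edgeR adjusted p = 2.5e-05) and HERC6 9.69-fold (log2 3.28, SE 0.45, edgeR adjusted p = 0.0004). The 95% intervals of both changes, 2.20 to 3.58 and 2.22 to 4.33 on the log2 scale, overlapped.

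USP18, the protease that reverses the modification, had the narrowest control values, at 13.1, 12.8 and 12.3 CPM. With decitabine it had 106.1, 97.3 and 97.6 CPM. With the combination treatment it had 15.6, 20.6 and 44.04 CPM, all above the controls. Its rise with decitabine was 7.89-fold (log2 2.98, SE 0.38, edgeR adjusted p = 0.00033). Of its stretches of 31 bases, 28.97% also occur in another gene and 14.65% in USP41, its near-identical copy, so that reads could have been divided between them. USP41 had at most 9 counts in a library, and adding its counts to USP18 left all 3 calls as they were. The counts of the other genes that share stretches with USP18 were not added, so the division of reads was only partly checked.

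**Figure D1:**
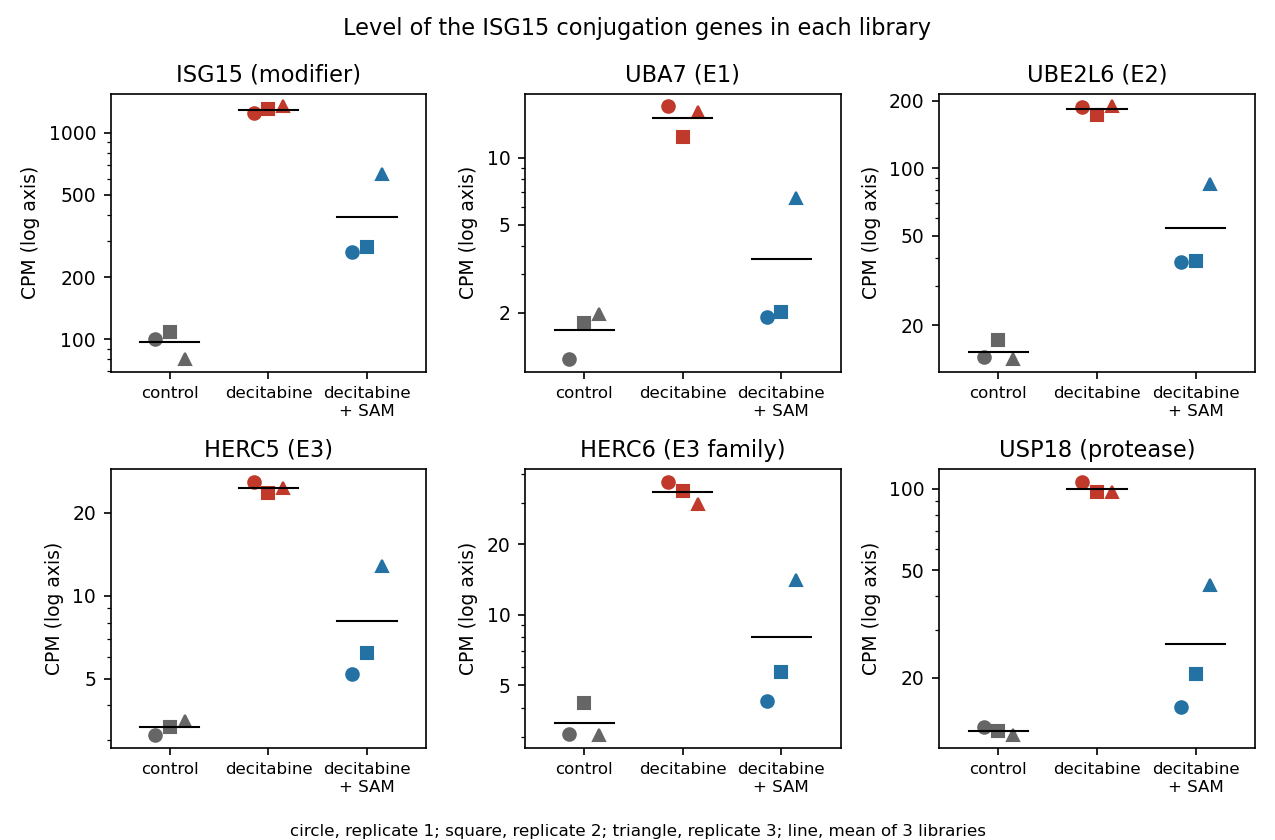
Level of each of the 6 genes in each library, in CPM on a log axis with its own range in each panel, for control, decitabine and combination libraries (circle, square and triangle are replicates 1, 2 and 3, and the line is the mean of 3). The decitabine libraries are highest in every panel, and the triangle of the combination treatment lies above its circle and square for all 6 genes.

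The combination treatment against control asked how much of this rise was present when SAM was given with decitabine. Of the 6 genes, 4 were upregulated (ISG15, UBE2L6, HERC5 and USP18), beside 35.9% of all genes tested. For 5 of 6, all but UBA7, the groups did not overlap, beside 38% of all genes that lay higher without overlap. The median log2 fold change was 1.25, beside 0.048 over all genes. Both comparisons use the same controls.

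ISG15 rose 4.06-fold, to 392.7 ± 208.9 CPM (log2 2.02, 95% interval 1.16 to 2.88, edgeR adjusted p = 0.0021), and UBE2L6 3.54-fold, to 54.0 ± 26.9 CPM (log2 1.82, 1.01 to 2.63, edgeR adjusted p = 0.0025). HERC5 rose 2.43-fold (log2 1.28, edgeR adjusted p = 0.0058) and USP18 2.11-fold (log2 1.07, edgeR adjusted p = 0.04). HERC6 had a log2 fold change of 1.22 with an interval of 0.10 to 2.34 and an adjusted p of 0.054 in edgeR, and UBA7 one of 1.07 with an interval of −0.15 to 2.29 and an adjusted p of 0.11. Neither passed the threshold, with intervals that still held changes of more than 2 on the log2 scale. Without Dec_Sam replicate 3, the modifier and its E2 were still the most raised, with log2 fold changes of 1.49 for ISG15 and 1.33 for UBE2L6. HERC5 then changed by 0.78, HERC6 by 0.52 and USP18 by 0.51, all with edgeR adjusted p-values of 0.023 or less, and UBA7 by 0.23 (edgeR adjusted p = 0.43). So 5 of 6 genes passed the threshold without this library, beside 34% of all genes upregulated. The call of USP18 was lost in the fit of only the 6 libraries compared (edgeR adjusted p = 0.083) and without any 1 of the control or decitabine libraries.

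The combination treatment against decitabine compared libraries with and without SAM, all with decitabine. Whether the cells with decitabine alone also received the vehicle is not stated. All 6 genes were downregulated relative to decitabine alone, beside 8.02% of all genes tested, and all 6 fell by more than 1 on the log2 scale, beside 1.74%. No combination library reached a decitabine library for any of the 6, beside 16.8% of all genes that lay lower without overlap. The median log2 fold change was −1.83, beside 0.002 over all genes.

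UBA7 and HERC6 had the largest differences, with log2 fold changes of −2.11 (SE 0.43, edgeR adjusted p = 0.017) and −2.06 (SE 0.40, edgeR adjusted p = 0.017). These are 4.32-fold and 4.16-fold lower levels. USP18 was 3.75-fold lower (log2 −1.91, SE 0.35, edgeR adjusted p = 0.016), UBE2L6 3.38-fold lower (log2 −1.76, SE 0.31, edgeR adjusted p = 0.014) and ISG15 3.30-fold lower (log2 −1.72, SE 0.35, edgeR adjusted p = 0.023). HERC5 was 3.04-fold lower (log2 −1.61, SE 0.27, edgeR adjusted p = 0.0068), and its call held under all 18 alternatives. The 95% intervals of the 6 genes all overlapped. Without Dec_Sam replicate 3 the differences were larger, from −2.11 for HERC5 to −2.94 for UBA7, with edgeR adjusted p-values of at most 2.7e-07, while 10.5% of all genes were called lower. That library was singled out by the values of these same genes, so its removal by itself enlarges the fall and narrows the spread.

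The number of these calls depended on the libraries. In the fit of only the 6 libraries compared, 2 of 6 genes passed the threshold, beside 1174 of 18277 genes called lower. The edgeR adjusted p-values were 0.031 to 0.056 over the 6. The number called was 1 of 6 without Dec_Sam replicate 2, 2 without Dec replicate 1 or Dec replicate 2, 5 without Dec replicate 3 or Dec_Sam replicate 1, and 6 without any 1 of the other 4. Of 18887 to 19076 genes tested in these fits, 480 were lower without Dec_Sam replicate 2, and 937 and 596 without Dec replicates 1 and 2. Without Dec replicate 3 and Dec_Sam replicate 1 they were 1521 and 773, and in the other 4 fits 1169 to 1997.

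**Figure D2:**
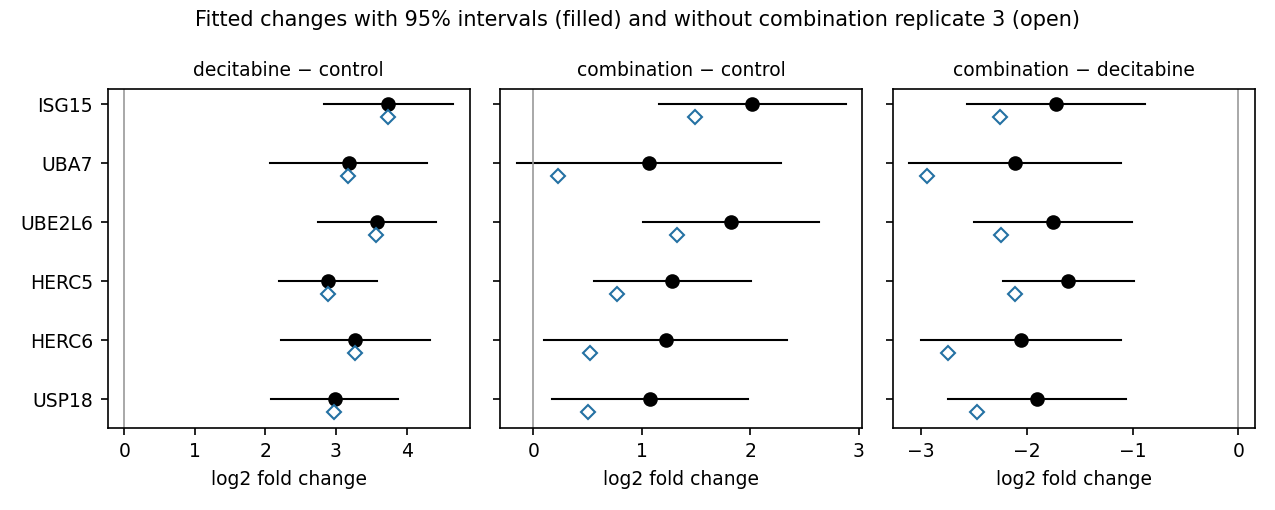
Log2 fold changes of the 6 genes in the 3 comparisons, with 95% intervals over all 9 libraries (filled circles) and without Dec_Sam replicate 3 (open diamonds). The decitabine changes lie between 2.89 and 3.74, the combination changes against control move towards 0 without that library, and those against decitabine move away from it.

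The share of the decitabine rise that was left was computed for each combination library, as its distance in CPM from the control mean divided by the distance of the decitabine mean. In Dec_Sam replicate 1 it was 14.0% for ISG15, 13.8% for UBE2L6 and 8.87% for HERC5. It was 3.27% for USP18, 2.74% for HERC6 and 1.80% for UBA7. In replicate 2 the same order began with ISG15 at 15.3%, UBE2L6 at 13.9% and HERC5 at 13.45%, and ended with USP18 at 9.03%, HERC6 at 7.43% and UBA7 at 2.602%. ISG15, UBE2L6 and HERC5 thus kept more of their rise than USP18, HERC6 and UBA7 in both libraries. In replicate 3 the shares were 35.5% to 44.8%, with HERC6 lowest and ISG15 highest, and the same 3 genes were the upper ones. These shares are descriptions of single libraries and were not tested.

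**Figure D3:**
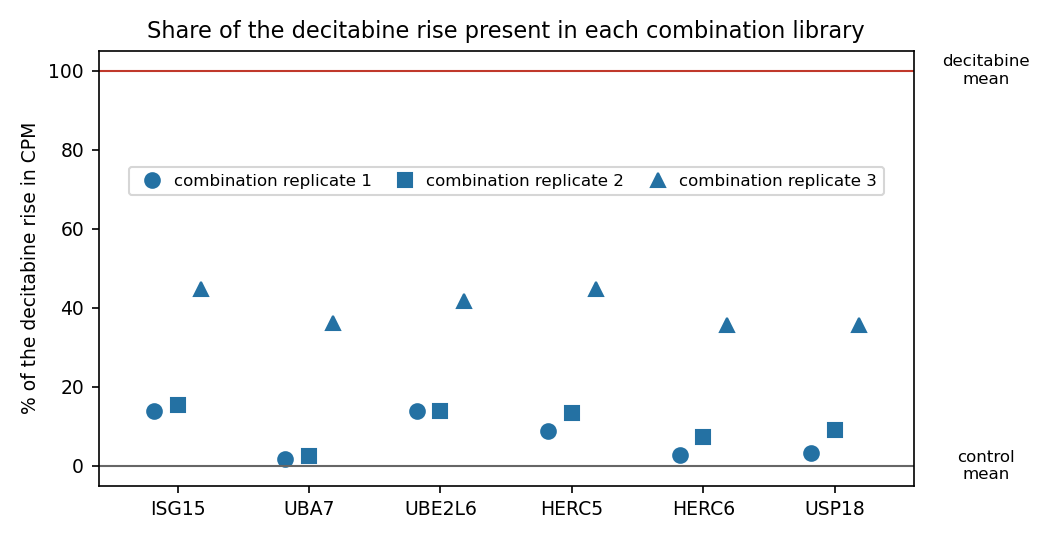
Share of the decitabine rise in CPM that was present in each combination library, with the control mean at 0% and the decitabine mean at 100%. Replicates 1 and 2 lie between 1.80% and 15.3% and replicate 3 between 35.5% and 44.8% for all 6 genes.

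Dec_Sam replicate 3 lay above its group mean for all 6 genes, by 0.76 (UBE2L6) to 1.13 (UBA7) on the log2 scale. Within the control and decitabine groups, no gene lay further than 0.38 from its group mean. Control replicate 2 also lay above its group mean for all 6, by 0.005 (USP18) to 0.295 (HERC6), and the other 5 of these libraries were above it for some genes and below it for others. Control replicate 3, for example, was low for ISG15 (−0.26) and high for UBA7 (0.25).

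To set the genes beside each other, levels were divided by the length of all exons of a gene and given as CPM per kb. In the controls ISG15 stood at 111.6 ± 17.1 CPM per kb, UBE2L6 at 7.42 ± 0.81 and USP18 at 3.11 ± 0.10 (SD, n = 3). HERC5 at 0.699 ± 0.040, HERC6 at 0.597 ± 0.113 and UBA7 at 0.368 ± 0.084 followed. HERC5 and HERC6 overlapped in the controls, and the other neighbours in this order did not. With decitabine the order was ISG15 at 1493, UBE2L6 at 88.5, USP18 at 24.5, HERC6 at 5.78, HERC5 at 5.19 and UBA7 at 3.34 CPM per kb, and the 2 ligase genes again overlapped. With the combination treatment it was ISG15 at 452.9, UBE2L6 at 26.2, USP18 at 6.53, HERC5 at 1.70, HERC6 at 1.39 and UBA7 at 0.769 CPM per kb. Over Dec_Sam replicates 1 and 2 alone the order was the same, from 313.9 for ISG15 to 0.433 CPM per kb for UBA7. By group means, the modifier was thus the most abundant and its E1 the least abundant transcript in every group. Taking the longest transcript of each gene as its length left the order as it was in all 3 groups.

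Relative to ISG15 within the same library, HERC5, HERC6 and USP18 had lower ratios in all treated libraries than in any control. USP18 had 24.8 to 32.4 CPM per kb for each 1000 of ISG15 in control, 15.4 to 18.1 in decitabine and 12.5 to 15.6 in combination libraries. HERC5 had 5.59 to 7.94 in control, 3.32 to 3.79 in decitabine and 3.602 to 4.03 in combination libraries. USP18 and HERC5, which remove and attach the modifier, thus had smaller fold changes than ISG15 itself. HERC6 had 4.58 to 5.78 in control, 3.31 to 4.45 in decitabine and 2.43 to 3.34 in combination libraries. The differences on the log2 scale between decitabine and control were −0.77 for USP18, −0.86 for HERC5 and −0.47 for HERC6 (each with a two-sided exact permutation p of 0.1, the smallest that 3 against 3 libraries allow). The ratio of UBE2L6 stayed between 55.7 and 74.2 in all 9 libraries and that of UBA7 between 1.38 and 4.69, with overlap between control and decitabine (two-sided exact permutation p = 0.2 for both). With the combination treatment, however, the ratio of UBA7 lay at 1.38 to 1.97, below all controls at 2.34 to 4.69 (log2 difference −1.07, two-sided exact permutation p = 0.1), the largest difference of the 5 ratios from control. Between the combination treatment and decitabine, the 5 ratios gave two-sided exact permutation p-values of 0.2 to 0.8. The control ratios share the low ISG15 value of control replicate 3, which was their highest library for 4 of 5 genes.

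**Figure D4:**
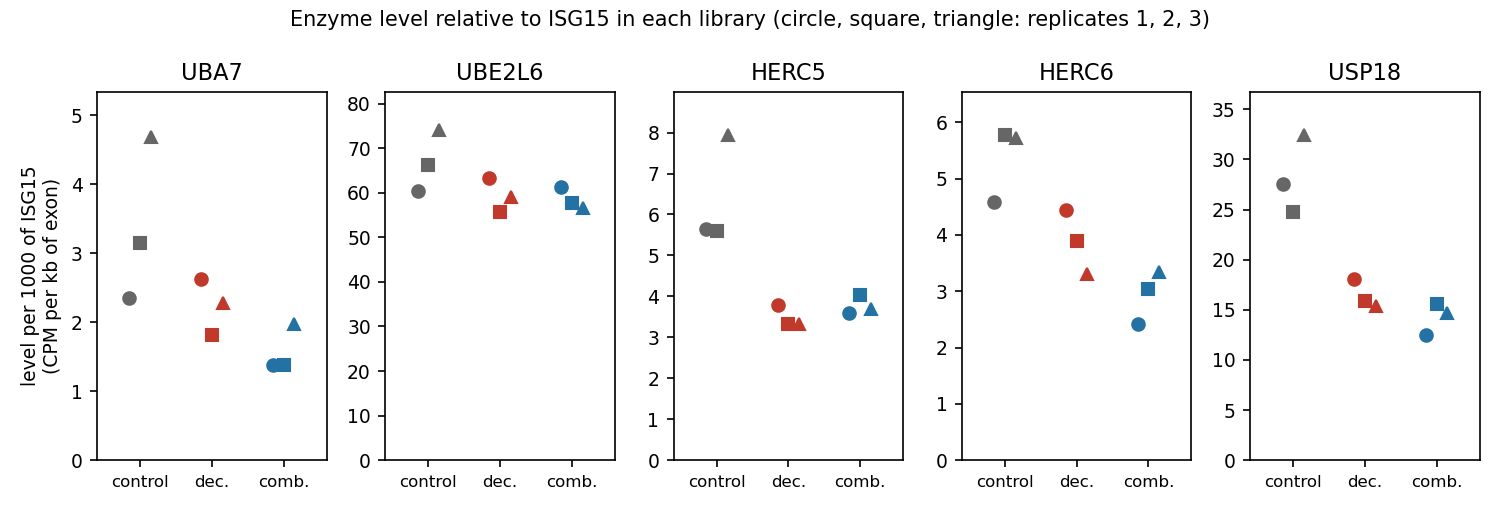
Level of each enzyme for each 1000 of ISG15, both in CPM per kb of exon, in each library of the control, decitabine (dec.) and combination (comb.) groups. The ratios of HERC5, HERC6 and USP18 are lower in all treated libraries than in the controls, and that of UBE2L6 lies between 55.7 and 74.2 throughout.

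Other genes that take part in the ISG15 system changed in both directions. TRIM25, ARIH1 and EIF4E2, known as further ISG15 ligases or a partner of ARIH1, were downregulated with decitabine in 2 of 3 cases, beside 32.5% of all genes, and TRIM25 was not called. When libraries were scaled by their totals only, EIF4E2 alone was called lower, and ARIH1 had a log2 fold change of 0.06 (edgeR adjusted p = 0.49). TRIM25, itself interferon-inducible in many cells, had 302.5 ± 23.6 CPM in the controls and 290.8 ± 31.9 with decitabine (log2 −0.06, edgeR adjusted p = 0.67). With the combination treatment it fell to 182.9 ± 30.3 CPM, below decitabine by 0.67 (SE 0.11, edgeR adjusted p = 0.003) and below the controls by 0.725 on the log2 scale (edgeR adjusted p = 8.4e-05). Without Dec_Sam replicate 3 these differences were −0.81 and −0.87. Its level thus went below the control, where the 6 conjugation genes did not. Of 6 other proteases that can act on ISG15, 1 rose with decitabine and 5 fell, beside 36.3% and 32.5% of all genes. With scaling by library size alone 3 fell, beside 3746 of 18532 genes. The one that rose was USP2, from 1.99 to 5.31 CPM (log2 1.42, edgeR adjusted p = 5.9e-06), and it did not fall with SAM (log2 0.41 against decitabine, edgeR adjusted p = 0.086). USP13 (log2 −0.84) and USP21 (log2 −0.78) fell most.

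In the receptor arm that USP18 damps, STAT2 and IRF9, which act together in the nucleus, rose with decitabine by 2.16 and 2.21 on the log2 scale (edgeR adjusted p = 0.00048 and 5.1e-08). STAT2 went from 59.4 ± 7.25 to 264.8 ± 27.2 CPM and IRF9 from 23.5 ± 3.95 to 108.4 ± 13.2 CPM. Both were lower with the combination treatment, by −1.51 and −1.13 (edgeR adjusted p = 0.017 and 0.0006), or by −1.94 and −1.24 without Dec_Sam replicate 3. IFNAR2, the receptor chain that USP18 binds, had 22.7, 21.5 and 22.8 CPM in the means of the 3 groups and was not called in any comparison. IFNAR1, the other receptor chain, and TYK2, a receptor kinase, fell with decitabine by 0.29 and 0.39 on the log2 scale, and neither passed the threshold when libraries were scaled by their totals only. SKP2, part of a ligase that marks USP18 for breakdown, fell from 42.7 to 15.6 CPM with decitabine (log2 −1.45, edgeR adjusted p = 1.4e-08) and stood at 19.4 CPM with the combination treatment.

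Among 13 proteins known to be modified by ISG15, 9 genes rose with decitabine and 1 fell, beside 36.3% and 32.5% of all genes. When SAM was added, 7 had lower levels, beside 8.02% of all genes, and the count was also 7 without Dec_Sam replicate 3. IFIH1 (log2 4.84) and RIGI (4.42), sensors of viral RNA, and MX1 (4.77) and IFIT1 (4.30), antiviral effectors, had the largest rises, and all 4 fell with SAM, by −1.83, −2.08, −2.28 and −2.14 in the same order. Without Dec_Sam replicate 3 these values were −2.42, −2.71, −2.97 and −2.80. These 4 are themselves interferon-induced genes. PCNA, the sliding clamp of replication, was the one that fell with decitabine (log2 −0.93, edgeR adjusted p = 3.3e-05). Of the integrin LFA-1, named as the receptor for ISG15 outside cells, the ITGB2 chain rose from 2.48 to 11.9 CPM (log2 2.25, edgeR adjusted p = 1.2e-08) and fell to 5.57 CPM with the combination treatment (log2 −1.09 against decitabine, or −1.17 without Dec_Sam replicate 3). The ITGAL chain had at most 4 counts in a library and was not tested.

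Among the enzymes of other ubiquitin-like systems, 5 of 9 E1 enzymes and 7 of 10 E2 enzymes were downregulated with decitabine, beside 32.5% of all genes, and the rest were not called. These counts depended on the scaling. By library size alone, 2 E1 enzymes were higher and 2 lower, and 2 E2 enzymes were higher and 3 lower. Of all 18532 genes, 8849 were then higher and 3746 lower, and their median moved from 0.03 to 0.28. UBE2L3, the closest relative of UBE2L6, fell under both scalings, from 126.7 to 83.1 CPM (log2 −0.61, or −0.36 by library size). Under TMM scaling, the largest log2 fold change of any listed E1 or E2 enzyme with decitabine was −0.895 (NAE1), beside 3.18 for UBA7 and 3.58 for UBE2L6. Of the 4 HERC genes outside HERC5 and HERC6, HERC4 rose by 1.025 and HERC3 by 0.42, and HERC1 and HERC2 fell, beside 36.3% and 32.5% of all genes. By library size alone, HERC1 was not called (log2 −0.09, edgeR adjusted p = 0.47). HERC3 follows HERC5 on the same strand of chromosome 4 and carries 2 identifiers, of which the one with more counts was used (5.63, 7.51 and 7.05 CPM in the 3 groups). Between the treatments the edgeR adjusted p-values of the 4 were 0.35 to 0.95, where 15.7% of all genes were called. Of 14 other modifiers tested, 3 rose and 5 fell with decitabine, beside 36.3% and 32.5% of all genes. With scaling by library size alone 6 rose and 3 fell, beside 8849 and 3746 of 18532 genes. The counts thus depended on the scaling, which also moved those of all genes. The largest changes were in URM1 (log2 −1.51) and ATG12 (log2 1.01). UBD, the other modifier known to be induced by cytokines, had at most 1 count in a library.

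**Figure D5:**
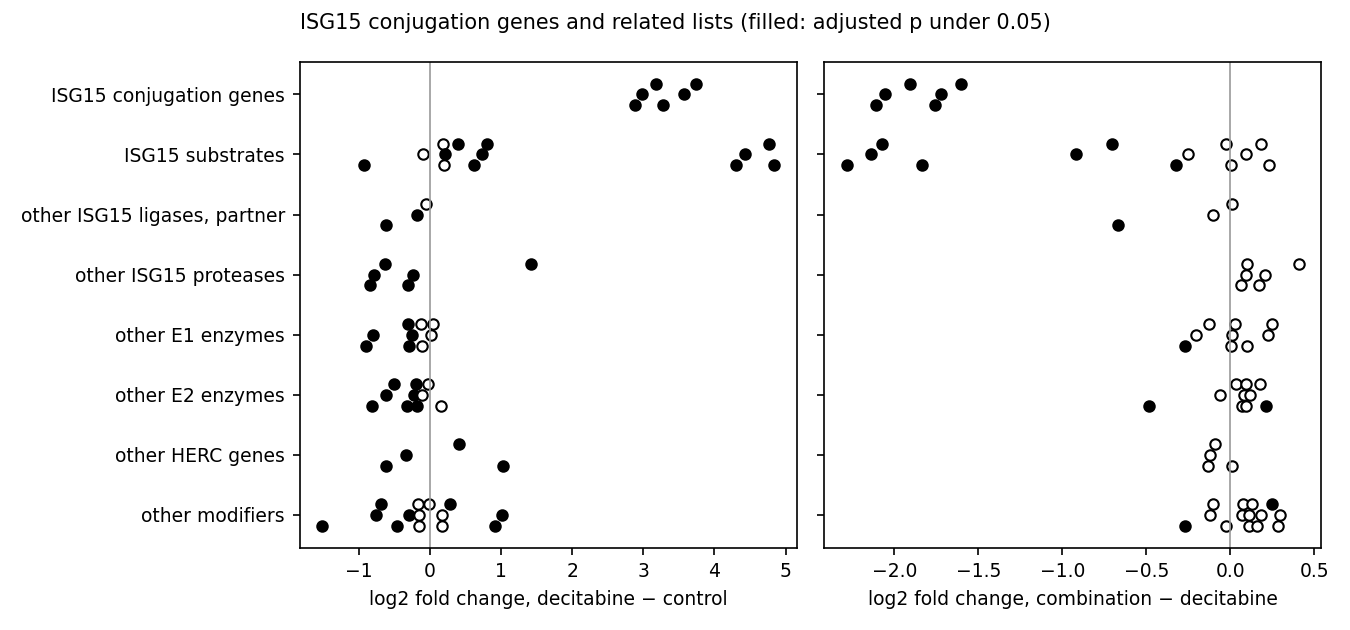
Log2 fold changes of the 6 ISG15 conjugation genes and of related gene lists for decitabine against control (left) and the combination treatment against decitabine (right), with 1 point per gene, filled where the edgeR adjusted p was under 0.05. The 6 genes lie above 2.8 on the left and below −1.6 on the right, where 4 of the ISG15 substrates also lie apart from the rest.

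The genes whose level followed the 6 most closely were found by Pearson correlation of log2 CPM with their mean standardised profile over the 9 libraries, in the 15313 genes whose mean was 1 CPM or more. The 10 closest were HELZ2, CMPK2, APOL1, NLRC5, IFIT2, PML, PLSCR1, PLAAT4, LAMP3 and OAS2, with r between 0.9952 and 0.9984. The 9 libraries share 3 groups and 1 library that stands apart, and r mostly describes these steps. HELZ2, for example, had 43.6, 397.5 and 116.2 CPM in the group means and 66.0, 82.3 and 200.4 CPM in the combination libraries. ISG15 alone was followed most closely by RIGI (r = 0.9971), IFI44L, IRF7, SP110 and IFITM1. The choice of measure mattered, as 1 of the 10 was also among the first 10 by Spearman correlation and 8 were with a minimum of 10 CPM.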

How the data were processed

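RNA-seq libraries of PC-3 cells (3 Ctrl, 3 Dec, 3 Dec_Sam) were grouped by the sample labels. The authors deposited estimated counts per Ensembl gene from kallisto, not normalized. Their methods and processing notes name FastQC, Trim Galore 0.6.4 and GRCh38.p13, and whether counting used strand and which annotation release was used are not given in the sources used here. The log2 CPM values that the authors also deposited were not used.

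Counts were rounded, filtered with filterByExpr, scaled with TMM and tested with edgeR 4.0.16 (R 4.3.3), using the robust quasi-likelihood test over all 9 libraries with no replicate term. P-values were adjusted over 18532 genes by the Benjamini-Hochberg method, with a threshold of 0.05. The SE is the log2 fold change divided by the square root of the F statistic. Exact permutation tests were two-sided. Totals were 21934307 to 22489684 counts, of which UBA7 in the controls had 25 to 40 per library.

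Identifiers were matched to GENCODE release 44 (60357 of 60617), promoters to RefSeq (4 of 6 genes). USP18 and UBA7 were not searched. The 6 genes and all lists were chosen with earlier results of these data known. Named genes were the 6, up to 4 called genes a list with the largest changes, some relatives and interferon factors in any case, neighbours within 100 kb past a log2 fold change of 1, and the most similar profiles. Pairs of replicates differed beyond sampling noise (chi-square per degree of freedom 5.86 to 23.5). The tests were tested on simulated data. Some results on single genes are left out. Alternatives were other scalings, DESeq2 1.42.0, voom with limma 3.58.1, other filters, unrounded counts, 6 libraries, a replicate block and leaving out each library. Scaling by library size and the fit without Dec_Sam replicate 3 were added for the lists after seeing the data.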

Additional observations from a re-analysis of the deposited data

How the results depend on the processing

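All 109 alternative fits of the 6 genes for decitabine against control kept direction and call, as did 92 of 109 for the combination treatment against control and 90 of 109 for it against decitabine. None reversed. Against control, HERC6 passed the threshold with library size alone (log2 1.45), DESeq2 (1.23) and voom (1.04) and without any 1 Dec_Sam library. UBA7 passed it only without Dec_Sam replicate 1 or 2, and USP18 failed it with no filter (1.04), with only the 6 libraries compared (1.09) and with the replicate block (1.004). Against decitabine, with only the 6 libraries compared, ISG15 (−1.72), UBA7 (−2.11), HERC6 (−2.06) and USP18 (−1.91) failed it. This left 2 genes called, beside 1174 of 18277 genes called lower. Library size alone gave 3746 downregulated genes for decitabine and 3857 for the combination treatment, beside 6030 and 5799, and its upregulated counts were 8849 and 8695, beside 6729 and 6647.

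When 1 library at a time was left out, the log2 fold changes against control were 0.52 to 1.51 for HERC6, 0.23 to 1.35 for UBA7 and 0.51 to 1.34 for USP18. Against decitabine they were −2.25 to −1.50 for ISG15, −2.94 to −1.82 for UBA7, −2.24 to −1.56 for UBE2L6, −2.75 to −1.76 for HERC6 and −2.47 to −1.63 for USP18, with 1 to 6 genes called. Over all genes, 381 to 2066 were then higher and 480 to 1997 lower than with decitabine, the lowest without Dec_Sam replicate 2 and the highest without Dec_Sam replicate 3. The cause of these changes was not tested.

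The correlations of the deviations of same-numbered libraries were −0.02 to 0.23, with 2 of 9 over 0.1, both between Dec and Dec_Sam, so that the numbers were not taken as pairs. Between Dec and Dec_Sam every library correlated best with its own number, a hint from the data and not the design, and with Ctrl this did not hold. The replicate block changed only the call of USP18 against control (edgeR adjusted p = 0.082). Depth limits UBA7 most, at 25 to 40 counts in the controls.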

Other observations

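The genes around the 6 changed in both directions. Within 100 kb of a member, 36 other genes were tested, of which 15 were upregulated and 10 downregulated by decitabine (edgeR, adjusted p under 0.05), beside 36.3% and 32.5% of all genes. Their median log2 fold change was 0.34 with decitabine and 0.04 for the combination treatment against decitabine. In the latter comparison 7 were higher and 4 lower, beside 1421 and 1487 of 18532 genes. HES4, a transcription factor of the Notch pathway, lies on the opposite strand, 0.966 kb from the body of ISG15, which begins at 1001138. The main transcript of ISG15 starts further in, at 1013497. HES4 rose from 9.55 to 51.3 CPM (log2 2.425, edgeR adjusted p = 1.6e-06). It stood at 35.3 CPM with the combination treatment (log2 −0.54 against decitabine, edgeR adjusted p = 0.062), a difference that passed the threshold without Dec_Sam replicate 3 (−0.76, edgeR adjusted p = 0.0016).

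Further neighbours that changed by more than 1 with decitabine were RNF223 (log2 4.06) and SAMD11 (2.43) near ISG15, CAMKV (1.09) and MST1R (1.07) near UBA7, MIR130AHG (2.38) near UBE2L6, PPM1K (1.64) near HERC6, and 4 genes without a name. In control, RNF223 had a mean of 0.116 CPM, SAMD11 0.166, MIR130AHG 0.182 and CAMKV 0.514, so their log2 values rest on few counts. With decitabine these genes had 2.02, 0.916, 0.972 and 1.099 CPM in the same order. PPM1K and MST1R had 3.825 and 57.72 CPM in control. The share of all genes that changed by more than 1 is not given here. Of the named ones, MST1R, a receptor tyrosine kinase, fell with the combination treatment against decitabine (−0.70, edgeR adjusted p = 0.0014), and CAMKV rose (1.45, edgeR adjusted p = 0.0044). Without Dec_Sam replicate 3 these were −0.84 and 1.68. PYURF and HERC3, which lie beyond HERC5, changed with decitabine by −0.14 (edgeR adjusted p = 0.19) and 0.42.

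Of 44 genes of the ubiquitin-specific protease family other than USP18, 11 rose and 19 fell with decitabine, beside 36.3% and 32.5% of all genes. By library size alone these counts were 15 and 11, beside 8849 and 3746 of 18532 genes. Against decitabine, 2 were higher and 3 lower with the combination treatment, where 15.7% of all genes were called.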
